A study of Homo sapiens with 18 samples.

Results

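The spliceosome is built on small nuclear ribonucleoproteins (snRNPs), in which a ring of Sm proteins closes around a small nuclear RNA. PRMT5, working in the methylosome with WDR77 and CLNS1A, places symmetric dimethylarginine on the arginine- and glycine-rich tails of SmB, SmD1, SmD3 and LSm4, and the modified tails are bound by the SMN protein, which helps to load the ring. Coilin, the scaffold of the Cajal bodies where snRNPs mature, carries the same modification. SmD2, SmE, SmF and SmG complete the ring.

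The mRNAs of 10 such proteins were followed: SNRPB, SNRPD1, SNRPD3, SNRPN, LSM4 and COIL, which encode the proteins best known for this modification, and the ring partners SNRPD2, SNRPE, SNRPF and SNRPG. They were taken by symbol from the 60642 symbols of the count tables. The counts measure mRNA, and neither protein nor arginine methylation was measured.

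RNA came from MDA-MB-231, an established human triple-negative breast cancer line, in 6 conditions with 3 biological replicates each. Cells were transfected for 48 h with 25 nM of a non-specific siRNA (siNS), of a pool against CBX3, which encodes HP1γ (siHP1γ), or of a pool against PRMT5 (siPRMT5), and then received 100 nM dexamethasone (Dex), a ligand of the glucocorticoid receptor, or the vehicle ethanol (Eth) for 8 h. Steroids had been removed from the serum with charcoal. All cells, the controls included, were transfected, 1 line was used, and 1 siRNA pool stands for each depletion. Libraries held 8682992 to 12472381 counted reads. PRMT5 mRNA fell to 2.96% of siNS with Eth and to 4.41% with Dex in siPRMT5 cells, and CBX3 mRNA fell to 3.89% and 6% in siHP1γ cells, so each target moved as its label says. Of 6 markers that the line is known to express, the lowest to highest level over the libraries was 5444 to 9592 CPM (the read count scaled by library size) for VIM, 506 to 857 for CD44, 134 to 670 for FN1, 182 to 1003 for AXL, 116 to 186 for NR3C1 and 5.81 to 10.7 for SPARC. AXL fell to 22.9% of siNS with Eth and 22.8% with Dex in siPRMT5 cells, and to 76.6% and 76.7% in siHP1γ cells, and its part in the results was not tested. Of 8 markers listed as low or absent, ESR1, PGR, CDH1, PTPRC and ALB had at most 2 reads in a library, but ERBB2 (24.5 to 36.0 CPM), EPCAM (8.57 to 14.0 CPM) and PECAM1 (1.10 to 8.15 CPM) were present.

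Of the 10 mRNAs, 9 had enough reads for a test in a set of 15298 genes. SNRPN had 0 reads in all 18 libraries, and SNURF, which shares exons with it on the same strand, was also at 0. A count of 0 allows up to 0.241 to 0.346 CPM in these libraries (3 reads of the total, counting error only). The noncoding transcript SNHG14, which covers the same locus on chromosome 15 (hg38, 24823637 to 24978723 for SNRPN), held 24 reads in all. How reads on shared exons were assigned is not given in the sources used here, so a count of 0 does not tell an unexpressed gene from one whose reads were set aside.

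In GENCODE 44, SNRPB lies on chromosome 20 (2461634 to 2470853, minus strand) and SNRPD3 on chromosome 22 (24555958 to 24582052, plus strand), each sharing exon bases with 1 unnamed gene on the same strand. SNRPD1 (chromosome 18, 21612314 to 21633524, plus strand), LSM4 (chromosome 19, 18306236 to 18323112, minus strand), SNRPE (chromosome 1, 203861599 to 203871152, plus strand) and SNRPG (chromosome 2, 70281362 to 70293740, minus strand) overlap no other gene. SNRPD2 (chromosome 19, 45687460 to 45692569, minus strand) overlaps QPCTL and SNRPF (chromosome 12, 95858952 to 95903828, plus strand) overlaps CCDC38, both on the opposite strand. The strand setting of the counting is not given in the sources used here, so reads from such partners cannot be told apart.

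For several ring partners the genome also holds processed pseudogenes, intron-free copies of the mRNA. SNRPG has 20 by symbol, SNRPE 9, SNRPF 4, SNRPD2 2 and SNRPB 1. None was found by symbol for SNRPD1, SNRPD3, LSM4 or COIL, and the genome was not searched by sequence for copies under other names. The reads were mapped with Bowtie2, which does not split a read over an intron, so the sequence across an exon junction matters: in the genome it is unbroken only in a pseudogene. The following windows show it on the coding strand, with 20 bases on either side of the junction, and capitals mark bases that differ between mRNA and copy. They were read from the GENCODE 44 transcripts, for mRNA and copy alike. The first pair, the SNRPE junction between exons 4 and 5 and its copy in SNRPEP4, was identical.
SNRPE: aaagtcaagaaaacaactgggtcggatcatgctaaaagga
SNRPEP4: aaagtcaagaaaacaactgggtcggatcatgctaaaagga
The SNRPG junction between exons 2 and 3 was likewise identical in SNRPGP2.
SNRPG: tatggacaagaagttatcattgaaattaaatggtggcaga
SNRPGP2: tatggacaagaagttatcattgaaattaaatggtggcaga
The SNRPD2 junction between exons 2 and 3 differed from SNRPD2P1 at 3 bases.
SNRPD2: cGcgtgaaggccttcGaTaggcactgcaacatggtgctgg
SNRPD2P1: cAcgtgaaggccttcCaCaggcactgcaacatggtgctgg
Of the coding junctions, SNRPEP4 matched 3 of 4, SNRPEP2 2 of 4, SNRPGP2 3 of 3, SNRPGP10 1 of 3, SNRPFP1 2 of 2 and SNRPD2P1 0 of 1 over all 40 bases. SNRPEP4 (chromosome 19, 5576660 to 5576938, minus strand, within another gene) was 98.6% identical to the SNRPE mRNA over 279 bases, and SNRPFP1 was 94.4% identical to SNRPF over 252 bases. The copies also took many reads: 51% of the summed reads of SNRPE and its copies lay on pseudogenes, 8259 on SNRPEP4 against 9205 on SNRPE itself. The share was 33.6% for SNRPG, 28.3% for SNRPF, 11.4% for SNRPD2 and 0.448% for SNRPB. These shares are of reads, not per base of transcript, and how many of the pseudogene reads came from the parent mRNA was not tested. The counts of SNRPE, SNRPG, SNRPF and SNRPD2 are therefore uncertain in this respect. Those of SNRPB, SNRPD1, SNRPD3, LSM4 and COIL carry less reads on named copies, or none. Copies under other names were not sought, and SNRPB, SNRPD3 and COIL share exon bases with other genes, so their counts are not free of such doubt.

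**Figure D1:**
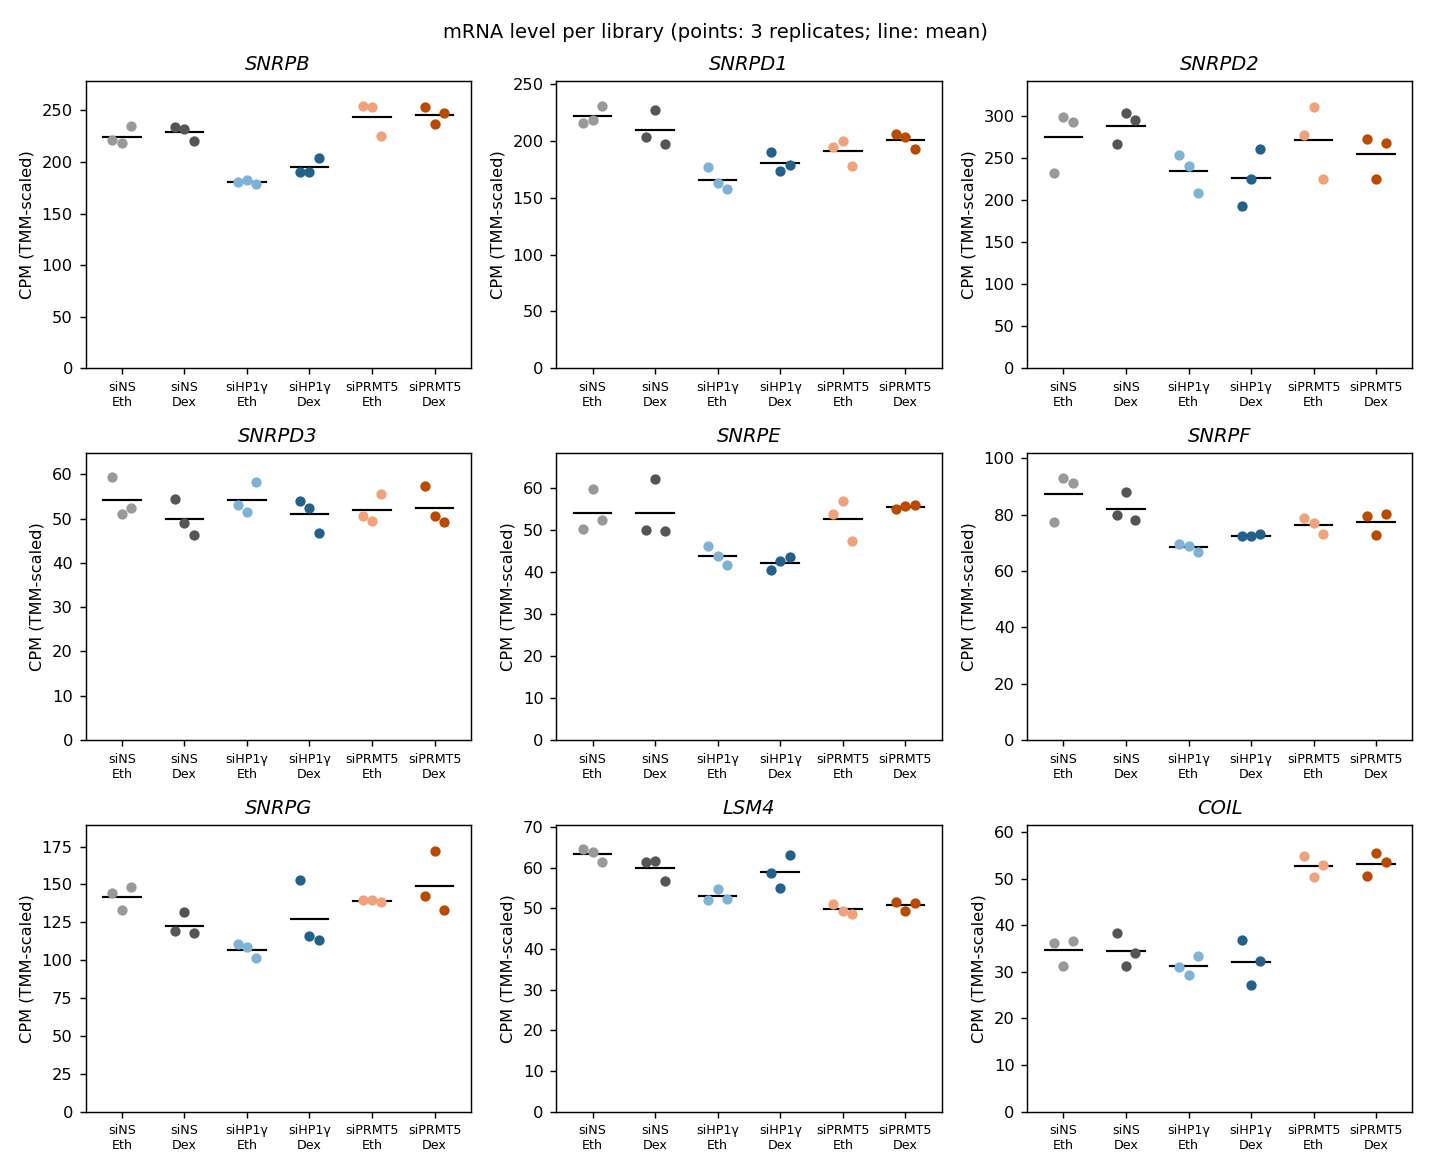
mRNA level of the 9 measured genes in each library, in CPM scaled by TMM (vertical axis, from 0), for the 6 conditions (horizontal axis); points are the 3 replicates and lines their mean. COIL stood higher in all 6 siPRMT5 libraries (50.4 to 55.6 CPM) than in the 12 others (27.2 to 38.3 CPM), and SNRPB was lowest in the siHP1γ libraries.

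The first question was whether the mRNAs of PRMT5's snRNP substrates changed when PRMT5 was depleted. COIL was the member with the largest difference, 1.52-fold higher with Eth and 1.54-fold higher with Dex, and LSM4 was lower in both. SNRPB and SNRPD3 did not pass the test in either treatment, and SNRPD1 passed it only with Eth. With Eth, 1 of the 9 rose and 3 fell, beside 20.6% of all genes called higher, 21.6% called lower and 42.1% in either direction at an adjusted p under 0.05 (edgeR's quasi-likelihood test with Benjamini-Hochberg adjustment, which gives every adjusted p here). With Dex, 2 rose and 1 fell, beside 20.6% higher, 21.9% lower and 42.4% in either direction. The median log2 difference of the 9 was -0.04 with Eth and 0.045 with Dex, against 0.0005 and 0.0021 over all genes. In RNA from bulk cultures, fewer cells with a transcript and less of it per cell cannot be told apart.

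COIL encodes coilin. With Eth it was at 36.1, 31.3 and 36.7 CPM in siNS cells and at 54.7, 50.4 and 52.9 CPM in siPRMT5 cells. With Dex the levels were 38.3, 31.3 and 34.0 CPM in siNS cells and 50.5, 55.6 and 53.5 CPM in siPRMT5 cells. Each siPRMT5 library was above each siNS library. The log2 fold change was 0.60 (SE 0.101, adjusted p = 2.52e-05) with Eth and 0.62 (SE 0.0989, adjusted p = 1.43e-05) with Dex. In siHP1γ cells COIL lay between 27.2 and 36.9 CPM and overlapped siNS, with log2 differences of -0.15 (95% interval -0.36 to 0.065) with Eth and -0.10 (-0.31 to 0.11) with Dex. Against siHP1γ directly, siPRMT5 cells held 1.68-fold more COIL mRNA with Eth (adjusted p = 9.12e-07) and 1.65-fold more with Dex (adjusted p = 1.19e-06). COIL (chromosome 17, 56938199 to 56961050, minus strand) overlaps an exon of 1 unnamed gene on the opposite strand.

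LSM4 encodes a subunit of the Lsm rings that bind U6 RNA in the nucleus and decaying mRNA in the cytoplasm. With Eth it was at 64.6, 63.8 and 61.4 CPM in siNS cells and at 51.2, 49.4 and 48.6 CPM in siPRMT5 cells. With Dex it was at 61.5, 61.8 and 56.8 CPM in siNS cells and at 51.5, 49.3 and 51.4 CPM in siPRMT5 cells. The groups did not overlap in either treatment, and the siPRMT5 libraries were the lower ones. LSM4 fell by 0.35 on the log2 scale with Eth (SE 0.0727, adjusted p = 0.000381) and by 0.24 with Dex (SE 0.0719, adjusted p = 0.00811). COIL and LSM4 were the members called in the same direction in both treatments, 2 of 9, beside 28.1% of all genes. Both kept their call without any 1 of the 18 libraries and under every other alternative tried.

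SNRPB encodes SmB and its splice form SmB'. In siPRMT5 cells it was at 254, 253 and 225 CPM with Eth, against 221, 218 and 235 CPM in siNS cells. The groups overlapped through 1 siPRMT5 library, and the log2 difference of 0.12 (95% interval -0.012 to 0.25) did not pass (adjusted p = 0.141). With Dex, 253, 237 and 247 CPM stood above the 234, 232 and 220.5 CPM of siNS, and the difference of 0.10 (interval -0.027 to 0.23) did not pass either (adjusted p = 0.198). Without siPRMT5 Eth replicate 3, the difference with Eth was 0.17 and passed (adjusted p = 0.0453).

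SNRPD1 encodes SmD1. It was at 216, 219 and 231 CPM in siNS cells with Eth and at 195, 200.1 and 178 CPM in siPRMT5 cells, with no overlap. It fell by 0.22 on the log2 scale (SE 0.0701, adjusted p = 0.0141), a call that ended without siNS Eth replicate 3 (adjusted p = 0.0665) or siPRMT5 Eth replicate 3 (adjusted p = 0.0863). With Dex, the 206, 203 and 193 CPM of siPRMT5 overlapped the 204, 228 and 197 CPM of siNS, and the difference was -0.061 (95% interval -0.20 to 0.083). The difference between the treatments was itself tested, at 0.16 (interval -0.046 to 0.36, adjusted p = 0.41).

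SNRPD3 encodes SmD3. It stayed within 46.3 to 59.4 CPM in the 18 libraries, and the conditions overlapped. Its log2 difference was -0.061 (95% interval -0.25 to 0.12) after PRMT5 depletion with Eth and 0.072 (-0.11 to 0.26) with Dex. It passed in none of the comparisons made.

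Among the ring partners, SNRPG was higher in siPRMT5 cells with Dex. It was at 119, 132 and 118 CPM in siNS cells and at 142, 172 and 133 CPM in siPRMT5 cells, without overlap, and rose by 0.28 on the log2 scale (SE 0.0968, adjusted p = 0.0202). The call ended without siPRMT5 Dex replicate 2 (0.17, adjusted p = 0.181), without siNS Dex replicate 1 (0.27, adjusted p = 0.0629) or replicate 3 (0.26, adjusted p = 0.0725), and when the reads of its 20 pseudogenes were added (0.19, adjusted p = 0.1). With Eth, SNRPG was at 144, 133 and 148 CPM in siNS cells and 140, 139.6 and 138 CPM in siPRMT5 cells, which overlap.

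SNRPF was at 77.4, 93.1 and 91.1 CPM in siNS cells and at 78.9, 77.1 and 73.0 CPM in siPRMT5 cells with Eth. The lowest siNS library lay within the siPRMT5 range. The decrease of 0.19 on the log2 scale passed narrowly (adjusted p = 0.0443). It did not pass with DESeq2 (adjusted p = 0.0506), its size factors (0.0507) or library size alone (0.073). It also missed with no filter on low counts (0.154), with the replicate block (0.0515) and in the fit of the libraries compared (0.0731). The call ended without siNS Eth replicate 2 (0.178) or 3 (0.158), siPRMT5 Eth replicate 1 (0.0522), 2 (0.0767) or 3 (0.148), or siHP1γ Eth replicate 2 (0.0524). SNRPD2 and SNRPE did not pass in siPRMT5 cells, with log2 differences from -0.18 to 0.045. No copy among the 6 pseudogenes with at least 1 CPM passed after PRMT5 depletion in either treatment.

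**Figure D2:**
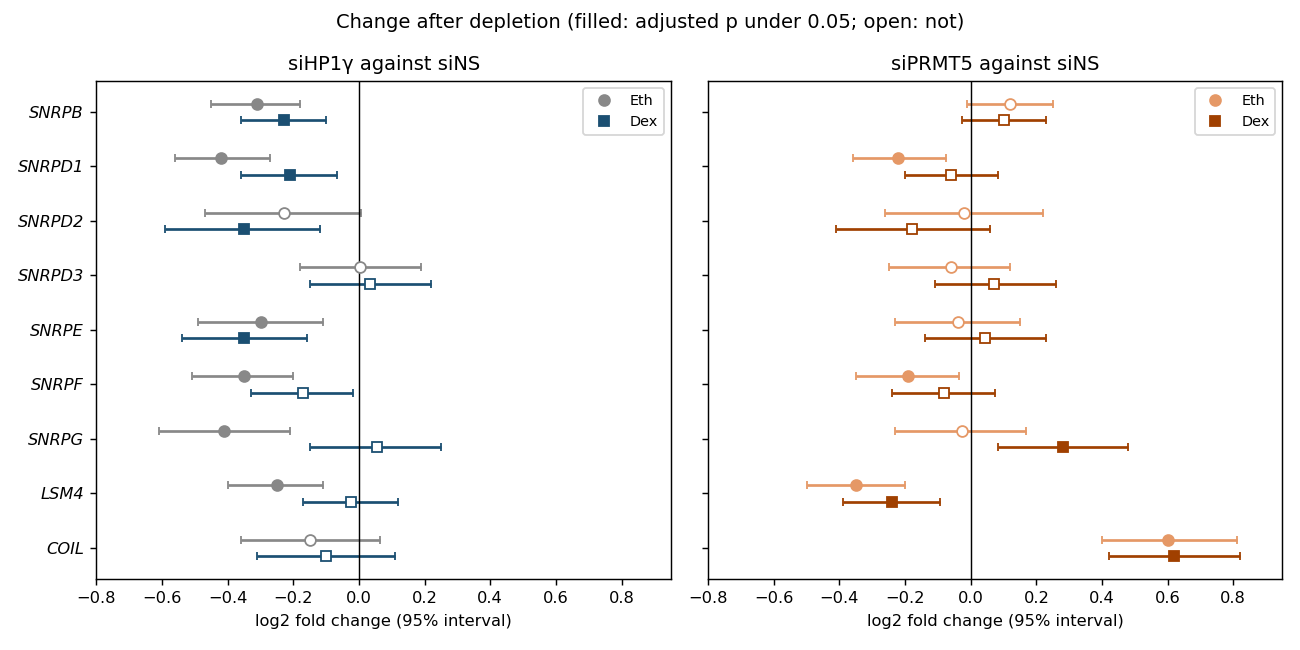
log2 fold change of each gene after depletion (horizontal axis) with its 95% interval, for siHP1γ (left) and siPRMT5 (right) against siNS, with Eth (circles) and Dex (squares); filled symbols passed the test. COIL lies to the right of 0 only in the siPRMT5 panel (0.60 and 0.62), while SNRPB, SNRPD1 and SNRPE lie to the left of 0 with filled symbols in both treatments of the siHP1γ panel.

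HP1γ is a chromatin protein that binds methylated histone H3 and is not counted among the methylosome genes here. The authors report that it bound PRMT5 directly in a pull-down. In cells made to overexpress PRMT5, HP1γ and the glucocorticoid receptor, they also found it together with PRMT5 and its cofactor MEP50. In siHP1γ cells with Eth, 6 of the 9 fell and 0 rose, beside 15.2% of all genes called lower and 16.5% called higher. With Dex, 4 fell and 0 rose, beside 12.3% lower and 11.7% higher. The median log2 difference was -0.30 with Eth and -0.17 with Dex, against 0.0125 and 0.0049 over all genes. SNRPB, SNRPD1 and SNRPE fell in both treatments, 3 of 9, beside 7.97% of all genes. The Eth and Dex comparisons share no library. Scaling mattered: the TMM factors of the siHP1γ libraries (1.018 to 1.04) lay above those of siNS (0.9689 to 0.9869), and without TMM, by library size alone, 6 members still passed with Eth but 1, SNRPE, with Dex. Over all genes the same change moved the calls with Dex from 1787 higher and 1882 lower to 2848 higher and 1269 lower, and with Eth from 2531 and 2329 to 3198 and 1814.

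SNRPB was at 180.5, 183 and 179 CPM in siHP1γ cells with Eth, below the 221, 218 and 235 CPM of siNS. With Dex it was at 190.2, 190.2 and 204 CPM, below the 234, 232 and 220.5 CPM of siNS. Neither pair of groups overlapped. SNRPB fell by 19.6% with Eth (log2 -0.31, SE 0.0638, adjusted p = 0.000455) and fell by 14.9% with Dex (log2 -0.23, SE 0.0634, adjusted p = 0.00855). By library size alone the difference with Dex was -0.15 and did not pass (adjusted p = 0.0892).

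SNRPD1 was at 177, 163 and 158 CPM in siHP1γ cells with Eth, against 216, 219 and 231 CPM in siNS cells. It fell by 25.2% (log2 -0.42, SE 0.0702, adjusted p = 5.34e-05), the largest decrease among the members after HP1γ depletion with Eth. With Dex it was at 190.3, 173 and 179 CPM against 204, 228 and 197 CPM, again without overlap, and fell by 13.6% (log2 -0.21, adjusted p = 0.0283). The call with Dex ended without siNS Dex replicate 2 (adjusted p = 0.151), siHP1γ Dex replicate 2 (0.114) or replicate 3 (0.0635), with no filter on low counts (0.0521), by library size alone (0.175) and in a fit of the 6 libraries compared (0.0746).

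LSM4 was at 52.1, 54.9 and 52.2 CPM in siHP1γ cells with Eth, all below the 61.4 to 64.6 CPM of siNS, and fell by 16.1% (log2 -0.25, SE 0.0718, adjusted p = 0.00843). With no filter on low counts it did not pass (adjusted p = 0.064). With Dex it was at 58.6, 55.1 and 63.2 CPM, around the siNS values, and the difference was -0.024 (95% interval -0.17 to 0.12). SNRPD3 and COIL did not pass after HP1γ depletion, and SNRPD3 differed by 0.0031 (interval -0.18 to 0.19) with Eth and 0.034 (-0.15 to 0.22) with Dex.

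Of the ring partners, SNRPE was at 46.1, 43.9 and 41.7 CPM in siHP1γ cells with Eth, below the 50.1, 59.7 and 52.3 CPM of siNS, and fell by 18.9% (log2 -0.30, SE 0.0927, adjusted p = 0.0143). With Dex it was at 40.5, 42.5 and 43.5 CPM, below 50.0, 62.2 and 49.8 CPM, and fell by 21.7% (log2 -0.35, SE 0.0921, adjusted p = 0.00614). The groups did not overlap in either treatment. The calls ended without siNS Eth replicate 2 (adjusted p = 0.0916) or siHP1γ Eth replicate 3 (0.0653), and with Dex without siNS Dex replicate 2 (0.0623).

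SNRPF was at 69.7, 68.8 and 66.6 CPM in siHP1γ cells with Eth, below every siNS library, and fell by 21.7% (log2 -0.35, SE 0.0763, adjusted p = 0.000889). With Dex it was at 72.3, 72.4 and 73.0 CPM against 79.8, 88.0 and 78.0 CPM, without overlap, and the log2 difference of -0.17 (95% interval -0.33 to -0.019) missed the threshold (adjusted p = 0.096).

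SNRPG was at 111, 109 and 102 CPM in siHP1γ cells with Eth, below the 133 to 148 CPM of siNS, and fell by 24.6% (log2 -0.41, SE 0.0978, adjusted p = 0.00232). With Dex, 1 siHP1γ library was at 153 CPM and the others at 116 and 113 CPM, on both sides of siNS, and the difference was 0.054 (95% interval -0.15 to 0.25).

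SNRPD2 was at 192, 225 and 261 CPM in siHP1γ cells with Dex, against 267, 304 and 295 CPM in siNS cells, and fell by 21.6% (log2 -0.35, SE 0.115, adjusted p = 0.0265). This call ended without siHP1γ Dex replicate 1 (adjusted p = 0.144) or 2 (0.0699), without siNS Dex replicate 2 (0.0907) or 3 (0.0839), and by library size alone (0.0812). With Eth, SNRPD2 overlapped siNS, at 253, 241 and 208 CPM against 232, 298 and 293 CPM (log2 -0.23, adjusted p = 0.132), and it passed with no filter on low counts (0.0285), in the fit of the 6 libraries compared (0.0152) and without siNS Eth replicate 1 (0.0343).

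The pseudogene counts moved in the siHP1γ libraries as well. With Eth, SNRPEP4 fell by 0.55 on the log2 scale (adjusted p = 1.06e-05), SNRPEP2 by 0.84 (adjusted p = 0.000895), SNRPGP2 by 0.55 (adjusted p = 0.00345) and SNRPFP1 by 0.30 (adjusted p = 0.0356). SNRPD2P1 and SNRPGP10 did not pass. With Dex, SNRPD2P1 fell by 0.42 (adjusted p = 0.0295) and SNRPEP4 by 0.25 (adjusted p = 0.0246). Over the 18 libraries, Pearson's r between parent and copy was 0.91 for SNRPD2 and SNRPD2P1, 0.79 for SNRPG and SNRPGP2, 0.71 for SNRPF and SNRPFP1, 0.70 for SNRPE and SNRPEP4, 0.46 for SNRPE and SNRPEP2 and 0.39 for SNRPG and SNRPGP10. These are descriptions over libraries that share their depth and conditions. When the reads of the copies were added to the parents, the count of members called was again 6 with Eth and 4 with Dex.

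PRMT5 mRNA itself fell by 16.1% with Eth (adjusted p = 0.0111) and fell by 21.3% with Dex (adjusted p = 0.00123) in siHP1γ cells. Because both depletions were set against the same siNS libraries, they were also compared with each other directly. With Eth, siPRMT5 cells held more COIL (log2 0.75), SNRPB (0.43, adjusted p = 3.85e-06), SNRPG (0.38, adjusted p = 0.00241), SNRPE (0.26, adjusted p = 0.0225) and SNRPD1 (0.20, adjusted p = 0.0207) than siHP1γ cells. That is 5 of 9 higher, beside 23.4% of all genes. With Dex, COIL (0.72), SNRPE (0.40, adjusted p = 0.000821) and SNRPB (0.34, adjusted p = 9.19e-05) were higher, 3 of 9 beside 24.4%, and LSM4 was lower (-0.22, adjusted p = 0.0136), 1 of 9 beside 25.5%. Leaving out siPRMT5 Eth replicate 2, siHP1γ Eth replicate 2 or siHP1γ Eth replicate 3 reduced the count with Eth to 3, since SNRPD1 and SNRPE no longer passed, and SNRPE also missed without siPRMT5 Eth replicate 1 (adjusted p = 0.0516). SNRPD1 missed by library size alone (adjusted p = 0.0554) and with no filter on low counts (0.0538). LSM4's call with Dex ended without siPRMT5 Dex replicate 2 (adjusted p = 0.0615) or siHP1γ Dex replicate 3 (0.0976), with no filter (0.0802) and in the fit of the 6 libraries compared (0.0666). SNRPG differed by 0.23 with Dex (95% interval 0.031 to 0.43) and missed the threshold (adjusted p = 0.0503). It passed with DESeq2 (0.049), with its size factors (0.0426), with no filter (0.0245), with the replicate block (0.0458) and when each of 10 of the 18 libraries was left out in turn. It ranged from 0.12 without siPRMT5 Dex replicate 2 (adjusted p = 0.345) to 0.39 without siHP1γ Dex replicate 1 (adjusted p = 0.000532).

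The response to Dex was read for the same genes. None of the 9 passed at an adjusted p under 0.01 and a change of at least 1.5-fold in siNS, siHP1γ or siPRMT5 cells, beside 2.71%, 1.67% and 5.44% of all genes. At an unadjusted p under 0.05 there was 1 in siNS cells (SNRPG), 2 in siHP1γ cells (SNRPG and LSM4) and 0 in siPRMT5 cells. The share of all genes at this unadjusted cutoff was not taken, so these counts cannot be set beside the shares above. DESeq2 called 0 in each. SNRPG was at 144, 133 and 148 CPM with Eth and 119, 132 and 118 CPM with Dex in siNS cells, just short of overlapping, with a log2 difference of -0.21 (adjusted p = 0.203). In siHP1γ cells its difference was 0.25, in the opposite direction (95% interval 0.051 to 0.45, adjusted p = 0.152). The difference of these responses was 0.46 (interval 0.18 to 0.74, adjusted p = 0.111), which did not pass. It passed when no filter on low counts was set (0.45, adjusted p = 0.0223). No member passed the test of a difference in the Dex response, for siHP1γ beside 0.399% of all genes and for siPRMT5 beside 3.8%. At an unadjusted p under 0.05 there were 3 for siHP1γ (SNRPG, LSM4 and SNRPD1) and 1 for siPRMT5 (SNRPG). Here too the share of all genes at the unadjusted cutoff was not taken, and the shares just given are for an adjusted p. DESeq2 called 0.

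Across the 18 libraries the members did not vary as a block. The highest Pearson's r of log2 CPM was 0.88, between SNRPD1 and SNRPF, followed by 0.81 between SNRPB and SNRPE. SNRPD3 had r between -0.53 (with SNRPD2) and 0.06 with the other members, and LSM4 and COIL had r = -0.63. When 11411 genes whose mean reached 5 CPM were compared, the closest patterns to SNRPB were those of MRGBP (r = 0.97) and IFIT1 (0.96), and to COIL those of ALDH5A1 (0.97) and RAB6A (0.96). NPM1P5 (0.93) and NOP58 (0.91) lay closest to SNRPD1, and HACD1 (0.93) and RPL22P13 (0.92) to LSM4. For SNRPD3 the best was 0.72, for RBM48 and for CLDN12. The libraries are those of 6 conditions, so these values describe the same contrasts and carry no test.

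The steps before and after ring assembly were read from lists of genes for the methylosome, the SMN complex, the other Lsm proteins, the snRNP-specific and minor spliceosome proteins, snRNP biogenesis and transport, and the Cajal body. In siPRMT5 cells, the methylosome subunit WDR77 fell by 0.36 on the log2 scale with Eth (adjusted p = 0.00472) and differed by -0.025 with Dex (adjusted p = 0.857). RIOK1, an alternative PRMT5 adaptor, rose 1.47-fold with Dex (adjusted p = 1.2e-06) and did not pass with Eth (log2 0.16, adjusted p = 0.105). COPRS, an adaptor for histones, rose 1.17-fold with Eth (adjusted p = 0.0401) and differed by -0.021 on the log2 scale with Dex (adjusted p = 0.869). Of the 5 genes of this list, 3 passed with Eth and 2 with Dex, PRMT5 included, beside 42.1% and 42.4% of all genes. The difference of the Dex response between siPRMT5 and siNS cells passed for 2 of the 5, PRMT5 included (0.57, adjusted p = 0.0297), beside 3.8% of all genes. It passed for 0 genes of the other lists. For those genes, a call in 1 treatment alone does not show that the treatments differed. In siHP1γ cells 3 of the 5 methylosome genes fell and 0 rose in each treatment. Beside them, 15.2% (Eth) and 12.3% (Dex) of all genes were called lower, and 16.5% and 11.7% higher. The 3 were picked for naming after their values were seen. Beside PRMT5, WDR77 fell by 0.69 with Eth (adjusted p = 9.19e-06) and 0.53 with Dex (adjusted p = 0.000222), and CLNS1A fell by 0.22 in both (adjusted p = 0.00685 and 0.0103). COPRS differed by 0.15 with Eth and 0.19 with Dex and RIOK1 by -0.029 and 0.13, and neither passed.

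Of the SMN complex, 8 of 10 genes were tested: GEMIN2, DDX20, GEMIN4 to GEMIN8 and STRAP. The genes of the SMN protein itself were not among them. After PRMT5 depletion 3 rose and 1 fell with Eth, beside 20.6% of all genes called higher and 21.6% called lower. With Dex 4 rose and 0 fell, beside 20.6% higher and 21.9% lower. DDX20, the helicase of the complex, rose 1.45-fold with Dex (adjusted p = 4.19e-06) and did not pass with Eth (log2 0.19, adjusted p = 0.0583). GEMIN2, which holds the Sm ring before it closes, rose 1.3-fold with Eth (adjusted p = 0.00159) and 1.28-fold with Dex (adjusted p = 0.0023). GEMIN8 rose 1.42-fold with Eth (adjusted p = 0.023) and 1.33-fold with Dex (adjusted p = 0.0495). GEMIN5, which recognises the small nuclear RNA, fell by 0.18 on the log2 scale with Eth (adjusted p = 0.0394) and differed by -0.051 with Dex (adjusted p = 0.588). The list's median was 0.069 with Eth and 0.19 with Dex. Of the minor spliceosome, which removes a rare class of introns, 4 of 8 genes rose and 0 fell in each treatment. Beside them, 20.6% of all genes were called higher in each, and 21.6% (Eth) and 21.9% (Dex) lower. The medians of the list were 0.30 and 0.31. SNRNP48 rose 1.55-fold with Eth (adjusted p = 0.000183) and 1.47-fold with Dex (adjusted p = 0.000535).

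**Figure D3:**
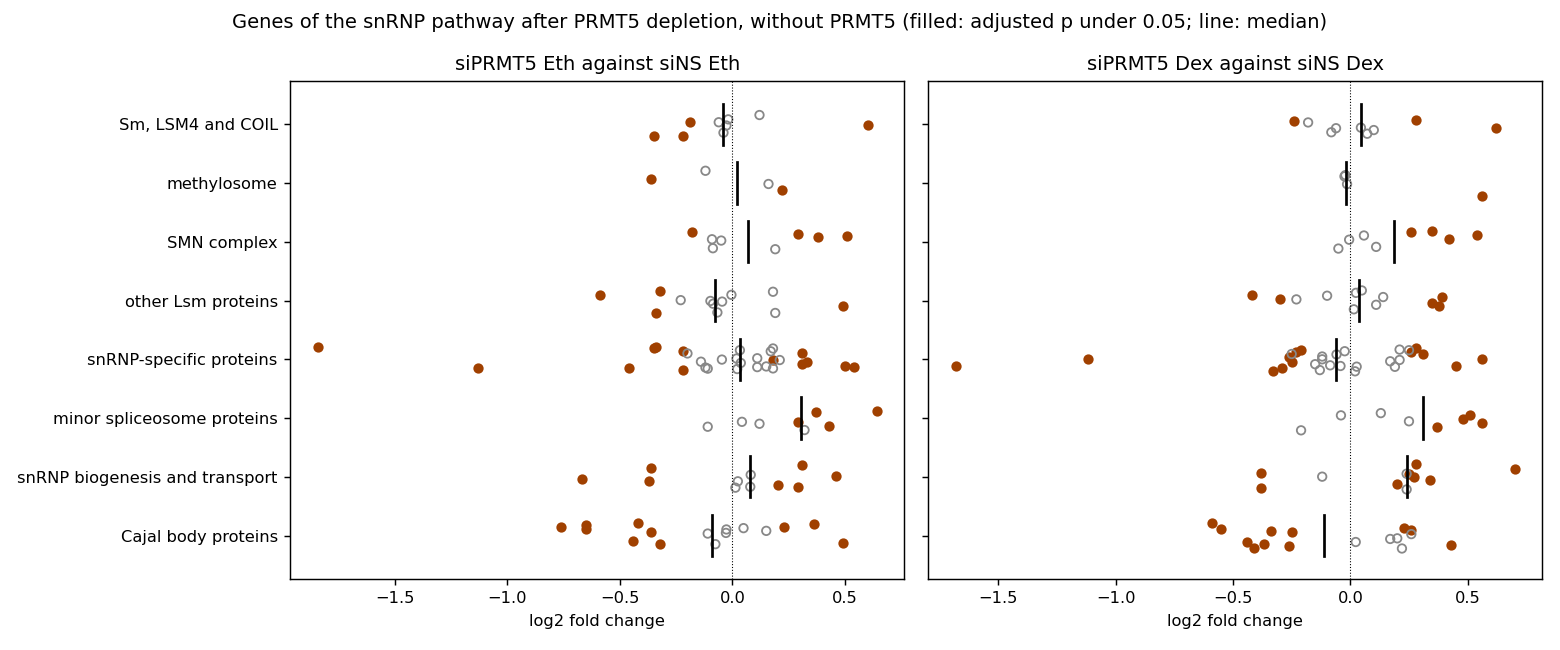
log2 fold change of each gene (points) after PRMT5 depletion with Eth (left) and Dex (right), by list (rows), without PRMT5 itself; filled points passed the test and bars mark medians. The lowest points, at -1.84 and -1.68, are PHF5A, and the median of the minor spliceosome proteins lies at 0.30 with Eth and 0.31 with Dex.

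Apart from PRMT5 itself, the largest changes of these lists were in snRNP-specific proteins. PHF5A, a subunit of the SF3B complex of the U2 snRNP, fell to 0.28 of its siNS level with Eth (log2 -1.84, SE 0.0958, adjusted p = 6.24e-14) and to 0.312 with Dex (log2 -1.68, SE 0.0935, adjusted p = 2.29e-13). SF3A3, of the SF3A complex of the same snRNP, fell by 1.13 and 1.12 on the log2 scale. SF3B3 rose 1.41-fold with Eth and 1.47-fold with Dex (adjusted p = 1.67e-06 and 2.73e-07). In all, 6 of 29 tested genes rose and 7 fell with Eth, beside 20.6% of all genes called higher and 21.6% called lower. With Dex 5 rose and 8 fell, beside 20.6% higher and 21.9% lower. The medians were 0.033 and -0.059.

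Of the 12 genes tested in the list of other Lsm proteins, which also holds PATL1, 1 rose and 3 fell with Eth. Beside them, 20.6% of all genes were called higher and 21.6% lower. With Dex 3 rose and 2 fell, beside 20.6% higher and 21.9% lower. LSM5, a partner of LSm4 in the Lsm rings, fell by 0.59 on the log2 scale with Eth (adjusted p = 1.84e-05) and 0.30 with Dex (adjusted p = 0.0139), and LSM7, another partner, fell by 0.34 with Eth (adjusted p = 0.0102) and differed by 0.049 with Dex (adjusted p = 0.726). LSM6, a partner as well, rose 1.31-fold with Dex (adjusted p = 0.000627) and did not pass with Eth (log2 0.18, adjusted p = 0.0834). The partners LSM1, LSM3 and LSM8 did not pass with Dex, with log2 differences of 0.11, 0.14 and 0.024. Their values with Eth are not given here, and of the 3 genes that fell with Eth only LSM5 and LSM7 are named. LSM11 rose 1.28-fold with Dex (adjusted p = 0.00659). LSM14B rose 1.4-fold with Eth (adjusted p = 4.1e-05) and 1.3-fold with Dex (adjusted p = 0.00063). NAA38 fell by 0.42 on the log2 scale with Dex (adjusted p = 0.00545). Of 11 genes of snRNP biogenesis and transport, 4 rose and 3 fell with Eth, and 6 rose and 2 fell with Dex. The shares of all genes beside these counts are the same as for the Lsm list. LARP7, a chaperone of 7SK RNA that also serves U6 RNA, rose 1.37-fold with Eth (adjusted p = 0.000206) and 1.63-fold with Dex (adjusted p = 6.08e-07). NCBP2, of the nuclear cap-binding complex, fell by 0.67 with Eth (adjusted p = 4.28e-08) and 0.38 with Dex (adjusted p = 0.000137).

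The Cajal body list, without COIL, gave 3 genes higher and 7 lower of 16 with Eth, beside 20.6% and 21.6% of all genes. With Dex it gave 3 higher and 8 lower, beside 20.6% and 21.9%. Its medians were -0.091 and -0.11. NOLC1, a chaperone that shuttles between nucleolus and Cajal body, fell by 0.76 with Eth (adjusted p = 1.03e-10) and 0.59 with Dex (adjusted p = 9.22e-09). SART3, which recycles the U4 and U6 snRNPs, fell by 0.44 with Eth (adjusted p = 8.12e-06) and 0.55 with Dex (adjusted p = 2.6e-07), and DKC1, the pseudouridine synthase of box H/ACA particles, fell by 0.65 with Eth (adjusted p = 1.19e-08) and 0.41 with Dex (adjusted p = 1.09e-05). SP100, a nuclear body protein, rose 1.17-fold with Eth (adjusted p = 0.00996) and 1.35-fold with Dex (adjusted p = 1.53e-05). ELL rose 1.4-fold with Eth (adjusted p = 0.000333) and 1.2-fold with Dex (adjusted p = 0.0383), and ICE1 rose 1.28-fold with Eth (adjusted p = 0.00199). With Eth, the share that passed lay above the 42.1% of all genes in every list except the other Lsm proteins (4 of 12). With Dex, only the methylosome (2 of 5) and the other Lsm proteins (5 of 12) lay below 42.4%. These lists are small, and their shares were not tested.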

How the data were processed

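RNA of 18 MDA-MB-231 libraries (6 conditions, 3 replicates each, groups and replicate numbers from the sample labels) was measured by RNA-seq. The authors prepared libraries with Lexogen kits, mapped the reads on hg38 with Bowtie2 2.4.2 and deposited raw HTSeq 0.9.1 counts for each library. The deposited counts cover 60642 gene symbols. The gene annotation, strand setting, overlap mode and read length are not given in the sources used here. A deposited table of the authors' own comparisons, made with DESeq2 2.11.40.7 (log2 fold changes, p-values and FDR), was not used.

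From the counts, 15298 genes were kept by filterByExpr in edgeR 4.0.16 (R 4.3.3), scaled by TMM and fitted in 1 quasi-likelihood model with 1 mean per condition over the 18 libraries (12 residual degrees of freedom). Comparisons used glmQLFTest with Benjamini-Hochberg adjustment over all genes tested. Thresholds were an adjusted p under 0.05 for the depletions and for differences of the Dex response, and an adjusted p under 0.01 with at least 1.5-fold for Dex. Standard errors were derived from each log2 fold change and its F value. CPM were TMM-scaled.

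All 10 members were named whatever their values. Also named were the siRNA targets, pseudogenes with a mean of at least 1 CPM, SNURF and SNHG14, up to 2 called genes per list and direction after PRMT5 depletion (mean of at least 5 CPM) and the 2 genes closest in pattern to SNRPB, SNRPD1, SNRPD3, LSM4 and COIL. Some genes that met the rule for the lists were not printed. The members and lists were chosen with earlier results of these data known. Pseudogenes were found by symbol and aligned to the canonical GENCODE 44 transcript with BLAST 2.17.0. Alternatives were DESeq2 1.42.0, its size factors or library size alone in edgeR, other filters, a replicate block, only the libraries compared, pseudogene reads added to the member, and each library left out in turn. On simulated counts for siPRMT5 Eth against siNS Eth (15057 genes), 66 of 100 genes changed 1.5-fold and 87 of 100 changed 2-fold were recovered, with 7.83% false calls. Only these few genes, drawn at random, were changed, whereas 42.1% of all genes were called in the real comparison. The rates therefore check the code and do not describe the test of the members.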

Additional observations from a re-analysis of the deposited data

How the results depend on the processing

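Outside the left-out libraries, the number of members called moved by over 1.5 times under 2 alternatives: by library size alone it was 1 in place of 4 for siHP1γ against siNS with Dex, and with no filter on low counts it was 1 in place of 0 for the difference of the Dex response between siHP1γ and siNS. Over all genes that difference was called for 61 genes, against 289 with DESeq2, 374 with no filter and 94 with the replicate block. Small differences changed sign: by library size alone, LSM4 in siHP1γ against siNS with Dex was 0.058 and SNRPD3 in siPRMT5 against siHP1γ with Dex was -0.028. With pseudogene reads added, SNRPG in siHP1γ against siNS with Dex was -0.0047 and SNRPD3 with Eth was -0.0021. SNRPD3 with Eth was also -0.0043 with at least 10 counts in every library and -0.012 in the fit of the libraries compared. None of these had passed, and the cause was not tested.

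Leaving out each library in turn, the number of members called ranged from 1 to 4 (siHP1γ) and 2 to 3 (siPRMT5) against siNS with Dex, from 5 to 7 and 2 to 4 with Eth, and from 3 to 6 for siPRMT5 against siHP1γ with Eth and with Dex; it was 0 for Dex in each siRNA and for both differences of the Dex response. For siHP1γ against siNS with Dex the count was 1 without siNS Dex replicate 2 and 2 without siHP1γ Dex replicate 2. For siPRMT5 against siNS it was 2 with Dex without siNS Dex replicate 1 or 3 or siPRMT5 Dex replicate 2, and 2 with Eth without siNS Eth replicate 3. Log2 differences that crossed 0 ranged, for siHP1γ against siNS with Dex, from -0.22 to 0.0041 for COIL, -0.076 to 0.022 for LSM4, -0.018 to 0.10 for SNRPD3 and -0.10 to 0.13 for SNRPG, and with Eth from -0.058 to 0.064 for SNRPD3. For siPRMT5 against siNS with Dex they ranged from -0.096 to 0.0061 for SNRPD1 and -0.0043 to 0.16 for SNRPE, and with Eth from -0.13 to 0.096 for SNRPD2, -0.11 to 0.0017 for SNRPD3, -0.099 to 0.035 for SNRPE and -0.076 to 0.0052 for SNRPG. For siPRMT5 against siHP1γ with Dex, SNRPD3 ranged from -0.023 to 0.085.

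Replicate numbers did not pair the libraries: of 45 same-numbered pairs of libraries, 13 correlated above 0.1 (median -0.0071), and 7 of 18 libraries matched their own number best. These correlations of deviations from the condition means ranged from -0.4384 to 0.6015. Differently numbered libraries also shared variation: siPRMT5 Dex replicate 2 had r = 0.5915 with siHP1γ Dex replicate 1 and -0.6188 with siHP1γ Dex replicate 3. The libraries thus did not all vary independently. The replicate block does not model this, and its source was not tested. With the replicate block, 6 and 4 members were called for siHP1γ against siNS with Eth and Dex, 3 and 3 for siPRMT5, and 5 and 5 for siPRMT5 against siHP1γ. SNRPF in siPRMT5 with Eth missed the threshold (adjusted p = 0.0515) and SNRPG in siPRMT5 against siHP1γ with Dex passed it (adjusted p = 0.0458).

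At these depths the 9 measured members had 278 to 3250 reads in a library, and same-group libraries differed by 2.1 to 12.3 times counting noise (chi-square per degree of freedom).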
